A study of Mus musculus with 9 samples.

Results

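Matrix metalloproteinases and their tissue inhibitors (TIMPs) were followed in the back skin of mice with dermatitis raised by DNCB (dinitrochlorobenzene), a small reactive molecule that causes contact allergy. The 10 genes are 7 metalloproteinases (Mmp3, Mmp10, Mmp12, Mmp13, Mmp2, Mmp14 and Mmp19) and 3 inhibitors (Timp1, Timp2 and Timp3), of 34637 genes with FPKM values and 55401 with counts. They were chosen by their names as metalloproteinases and inhibitors of stroma and epithelium, led by Mmp3, and on the contrast between the groups in these same libraries. The differences between the groups are therefore given as a description, with no test.

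All mice were male C57BL/6 mice of 6 to 8 weeks, shaved on the back and exposed to DNCB by the same schedule from day 1 to day 21. The FJDHF group (n = 5) was fed the Fangji Dihuang formulation, a herbal preparation, daily after day 7 and until day 28, and the Model group (n = 4) was given water instead. Since both groups carried the dermatitis, no comparison with healthy skin is made here. RNA-seq of the skin gave counts per gene and FPKM, which are counts scaled for gene length and depth. Counts were also scaled to a common library size (CPM), and total counts lay between 74648669 and 79474215 per library.

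The libraries have the codes MXL1, MXL12, MXL3_4 and MXL_3, taken as the Model group, and MR1, MR3, MR3_4, MR4_5 and MR5, taken as the FJDHF group. This assignment follows from the number of columns and from MX, which abbreviates the Chinese for model (moxing), and the direction of each difference below rests on it. Whether a code with several numbers marks RNA of more than 1 mouse is not given in the sources used here. Skin markers were present in each library, with Krt5 at 575 CPM or more and Krt10 at 997 CPM or more, but Krt14 ranged from 203 to 2320 CPM and the mean log2 level of skeletal muscle genes from 5.55 to 10.55, and the part of tissue makeup in these ranges was not tested. In bulk skin, fewer cells of a type and less RNA per cell cannot be told apart.

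Metalloproteinases are zinc enzymes that cut collagens and other matrix proteins, and most are secreted as inactive proenzymes. Stromelysins (Mmp3, Mmp10) cut many matrix proteins and activate other proenzymes, the collagenase Mmp13 cuts fibrillar collagen, the gelatinase Mmp2 cuts denatured and basement membrane collagen, and Mmp12 is the elastase of macrophages. TIMPs bind the active enzymes and block them, and Timp2 together with the membrane enzyme Mmp14 also takes part in activating pro-Mmp2.

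The genes Mmp13, Mmp12, Mmp3 and Mmp10 lie on chromosome 9 between positions 7272514 and 7510240 of GRCm38, a stretch of 238 kb with 4 of the 10 members. They are not its only genes, since Mmp1b overlaps Mmp12. AP-1, a dimer of Fos and Jun proteins, is a known regulator of metalloproteinase promoters, and its site TGAGTCA, or TGACTCA on the other strand, was searched in the 250 bases before the gene starts given by RefSeq (GRCm38.p6). Entries were matched for 8 members. The site was found in 4 of their 9 windows, which belong to the members on chromosome 9, against 4.46% of all 32851 windows. The last 120 bases before the start are shown for these 4 windows because they hold the site and include that of the leading gene, Mmp3, with the site in capitals.

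Mmp3, chr9:7445702-7445821, plus strand: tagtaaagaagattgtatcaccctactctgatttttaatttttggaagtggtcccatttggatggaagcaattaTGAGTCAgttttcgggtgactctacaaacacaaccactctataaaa
Mmp10, chr9:7502222-7502341, plus strand: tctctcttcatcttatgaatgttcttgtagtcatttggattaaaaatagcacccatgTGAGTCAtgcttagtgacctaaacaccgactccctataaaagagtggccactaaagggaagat
Mmp13, chr9:7272394-7272513, plus strand: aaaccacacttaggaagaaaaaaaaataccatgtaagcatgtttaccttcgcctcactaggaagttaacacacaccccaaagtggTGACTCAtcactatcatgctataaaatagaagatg
Mmp12, second entry, chr9:7347254-7347373, plus strand: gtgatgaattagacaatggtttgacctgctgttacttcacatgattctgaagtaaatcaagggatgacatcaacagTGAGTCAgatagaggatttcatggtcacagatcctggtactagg

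The site began 46 bases before the start in Mmp3, 63 in Mmp10, 35 in Mmp13 and 44 in the second Mmp12 entry. The other Mmp12 entry and the windows of Mmp14, Timp1, Timp2 and Timp3 did not hold these letters. A match describes the sequence and does not show that a factor binds there.

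Across all genes, edgeR's quasi-likelihood test called 0 of 20817 genes (0%) at the study's threshold of a 2-fold change with an adjusted p under 0.05, and 326 at an unadjusted p under 0.05 (1.57%). DESeq2's Wald test called 2 at the adjusted threshold. All 10 members were among the genes tested, 9 had a lower fitted level in the FJDHF group and 1 a higher one (55.9% of all tested genes were lower), and their median log2 fold change was -0.51 against -0.03 over all tested genes. Without MXL12 the median of the members was -0.07. The number of lower members was 6 without MXL12, without MXL_3 or with the fibroblast score as a covariate. For none of the 10 members were the groups apart without overlap, a pattern that 0.514% of all tested genes showed.

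Mmp3, a stromelysin of fibroblasts and keratinocytes, is at 7445822 to 7455975 on chromosome 9. In the Model group it had 175 CPM in MXL1, 494 in MXL12, 164.5 in MXL3_4 and 467 in MXL_3. In the FJDHF group it had 214 CPM in MR1, 121 in MR3, 167 in MR3_4, 121 in MR4_5 and 245 in MR5. MXL12 and MXL_3 stood above all FJDHF libraries, while MXL1 and MXL3_4 lay among them. The means were 325 ± 180 CPM (SD, n = 4) and 173 ± 55.3 CPM (SD, n = 5), with a log2 fold change of -0.91 (standard error 0.38). It was negative whichever 1 library was left out, between -1.13 without MXL3_4 and -0.63 without MXL12. Each of these fits kept MXL12 or MXL_3.

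Mmp10, the other stromelysin, was the lowest of the members (chromosome 9, 7502352 to 7510240). Its counts in the Model group were 0 in MXL1, 1785 in MXL12, 18 in MXL3_4 and 53 in MXL_3, and in the FJDHF group 474 in MR1, 71 in MR3, 197 in MR3_4, 459 in MR4_5 and 226 in MR5. Thus 3 of the 4 Model libraries lay under every FJDHF library and the remaining one, MXL12, lay above them all. The means were 6.15 ± 11.7 CPM for Model (SD, n = 4) and 3.71 ± 2.27 CPM for FJDHF libraries (SD, n = 5). With all libraries the log2 fold change was -0.73 (standard error 1.41), and it was 3.53 without MXL12, so that 1 library set its direction.

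Mmp13, a collagenase (chromosome 9, 7272514 to 7283331), showed the same layout. Its Model values were 5.12 CPM in MXL1, 169 in MXL12, 9.84 in MXL3_4 and 5.31 in MXL_3. Its FJDHF values were 23.9 CPM in MR1, 8.41 in MR3, 20.3 in MR3_4, 38.6 in MR4_5 and 27.9 in MR5. Apart from MXL12, each Model library lay below at least 4 of the FJDHF libraries. The means were 47.3 ± 81.2 CPM (SD, n = 4) and 23.8 ± 11.0 CPM (SD, n = 5), and the log2 fold change of -0.99 (standard error 0.98) became 1.82 without MXL12.

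Mmp12, the macrophage elastase (chromosome 9, 7344381 to 7369499), was raised in another library. Its Model values were 11.3 CPM in MXL1, 33.4 in MXL12, 17.7 in MXL3_4 and 201 in MXL_3. Its FJDHF values were 31.1 CPM in MR1, 5.31 in MR3, 65.2 in MR3_4, 19.0 in MR4_5 and 77.8 in MR5. The lowest and the highest library differed 37.8-fold. Its log2 fold change of -0.73 (standard error 0.90) became 0.93 without MXL_3. The gene overlaps Mmp1b on the opposite strand, and whether counting used strand is not given in the sources used here.

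**Figure D1:**
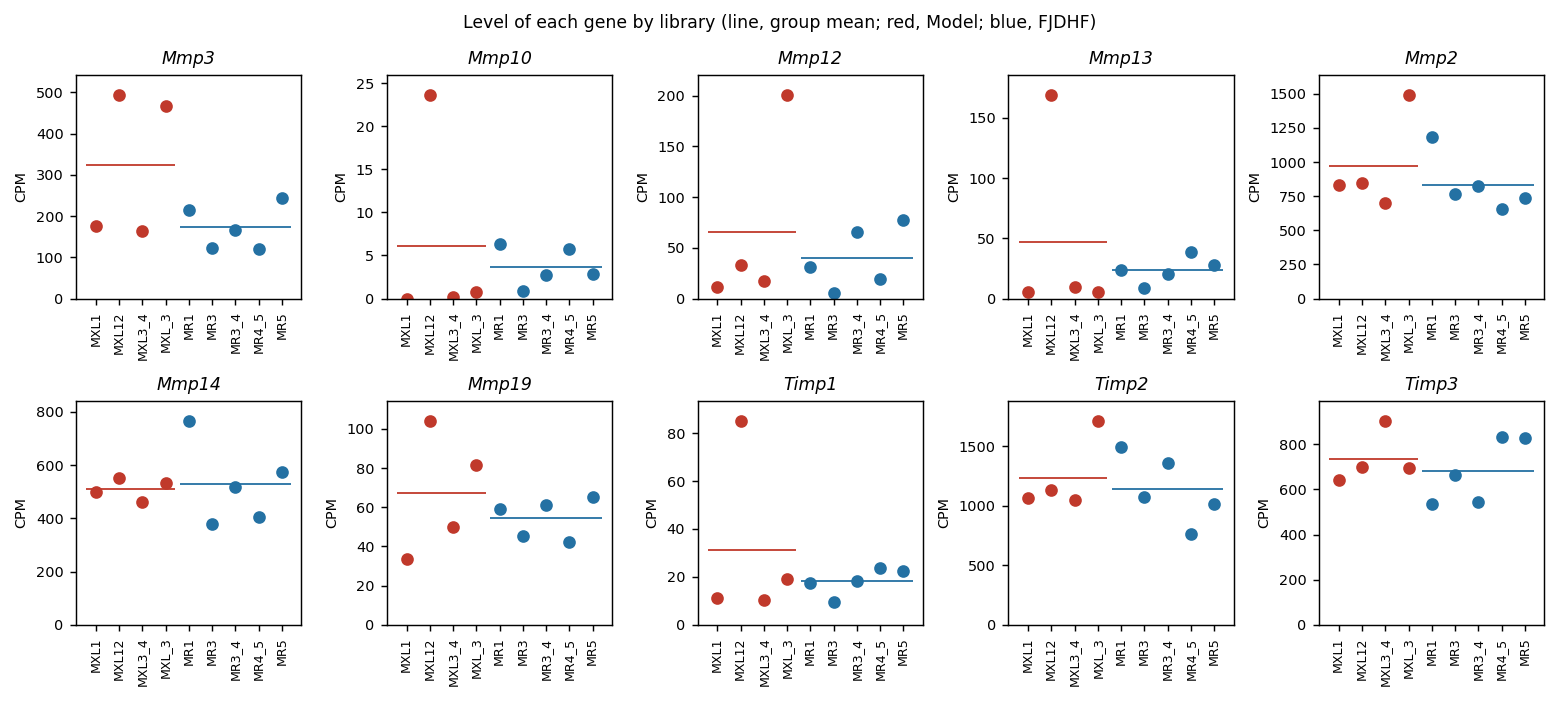
CPM of each of the 10 genes (vertical axis, from 0) in each library (horizontal axis), with Model libraries in red, FJDHF libraries in blue and lines at the group means. MXL12 is the highest library for Mmp3, Mmp10, Mmp13, Mmp19 and Timp1, and MXL_3 for Mmp12, Mmp2 and Timp2.

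Mmp2, a gelatinase made mainly by fibroblasts (chromosome 8, 92827291 to 92853420), was far more even. Its Model values were 835 CPM in MXL1, 847 in MXL12, 698 in MXL3_4 and 1492 in MXL_3, and its FJDHF values were 1186 CPM in MR1, 764 in MR3, 827 in MR3_4, 653 in MR4_5 and 737 in MR5. Only MXL_3 lay above the FJDHF range. The log2 fold change was -0.22 (standard error 0.26) and 0.07 without MXL_3.

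Mmp14, the membrane-anchored enzyme (chromosome 14, 54431612 to 54441265), was the member with a higher fitted level in the FJDHF group. The Model libraries kept within 461 to 551 CPM, with a mean of 511 ± 39.8 CPM (SD, n = 4), and all lay inside the FJDHF range of 380 to 765 CPM, with a mean of 529 ± 155 CPM (SD, n = 5). The log2 fold change was 0.05 (standard error 0.21), and -0.13 without MR1.

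Mmp19 (chromosome 10, 128790910 to 128800824), a metalloproteinase expressed widely in tissues, had 33.4 CPM in MXL1, 104 in MXL12, 50.0 in MXL3_4 and 81.4 in MXL_3. The FJDHF libraries kept between 42.1 and 65.5 CPM, inside the Model range. Its log2 fold change was -0.30 (standard error 0.30) and -0.01 without MXL12. Genes on the opposite strand, Tmem198b and Gm47093, overlap it.

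Among the inhibitors, Timp1 varied most (chromosome X, 20870166 to 20874735). It had 11.2 CPM in MXL1, 85.0 in MXL12, 10.4 in MXL3_4 and 19.0 in MXL_3, against 17.4 in MR1, 9.59 in MR3, 18.4 in MR3_4, 23.9 in MR4_5 and 22.3 in MR5. MXL12 was 4.48-fold above the next Model library, and the other Model libraries lay inside the FJDHF range. A log2 fold change of -0.78 (standard error 0.60) became 0.44 without MXL12. Timp1 overlaps Syn1, a gene of the opposite strand.

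Timp2 (chromosome 11, 118301069 to 118355740, minus strand) had 1061 CPM in MXL1, 1131 in MXL12, 1045 in MXL3_4 and 1709 in MXL_3. The FJDHF libraries ranged from 759 to 1494 CPM, so that all Model libraries but MXL_3 lay inside their range. The log2 fold change was -0.12 (standard error 0.24) and 0.08 without MXL_3. Its sign changed in 2 of the 9 fits with 1 library left out. Cep295nl, on the same strand, overlaps Timp2.

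Timp3 (chromosome 10, 86300372 to 86349506), which stays bound to the matrix, had 641 CPM in MXL1, 701 in MXL12, 902.5 in MXL3_4 and 696 in MXL_3, and 535 to 833 CPM in the FJDHF libraries. The groups overlapped widely, with a log2 fold change of -0.11 (standard error 0.20), and 0.00 without MXL3_4. Timp3 overlaps Syn3 on the opposite strand.

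**Figure D2:**
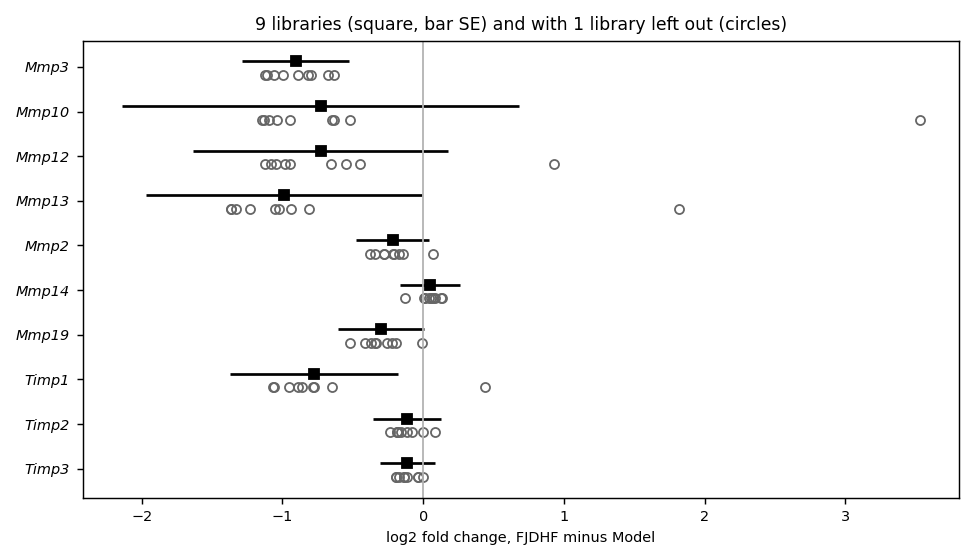
Log2 fold change of each gene, FJDHF minus Model (horizontal axis), from all 9 libraries (squares, bars are the standard error) and with 1 library left out (open circles). For Mmp3 and Mmp19 all 9 circles are negative. Mmp10, Mmp13, Mmp12 and Timp1 each have 1 circle above 0, at 3.53, 1.82, 0.93 and 0.44. The sign also changes in 1 circle each for Mmp2, Mmp14 and Timp3, and in 2 for Timp2.

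The levels were next compared between the genes per length, on the FPKM scale. The order of median FPKM was Timp2 (272), Mmp2 (224), Mmp3 (94.6), Mmp14 (81.5), Timp3 (80.2), Timp1 (18.9), Mmp19 (15.7), Mmp13 (6.94), Mmp12 (4.04) and Mmp10 (1.43). Neighbours in this order were compared by a two-sided exact permutation test over the sign flips of 9 libraries, with adjustment over 9 comparisons. The order itself was taken from the same libraries, so these p-values are not an independent test of the order. Timp2 exceeded Mmp2 in 8 of 9 libraries (mean log2 difference 0.21 ± 0.17 SD, exact permutation adjusted p = 0.0352), Mmp2 exceeded Mmp3 in 8 (1.12 ± 0.59, exact permutation adjusted p = 0.0352) and Timp3 exceeded Timp1 in 8 (2.00 ± 0.97, exact permutation adjusted p = 0.0352). For the other 6 neighbours the difference did not pass adjustment. Leaving out 1 library changed the number past adjustment to 0 without MR3, MR3_4, MR5, MXL1 or MXL3_4, and to 5 without MXL12. Mmp14 and Timp3 were closest, with Mmp14 higher in 5 of 9 libraries.

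**Figure D3:**
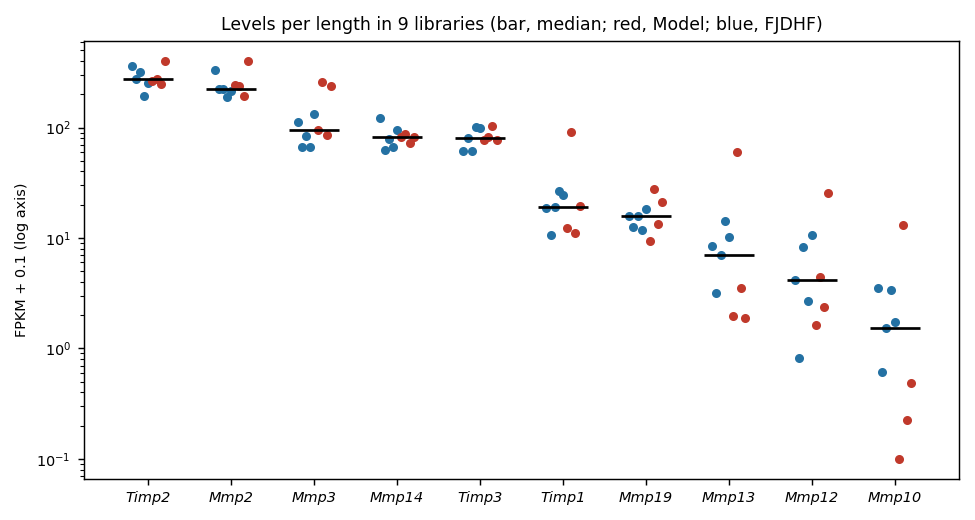
FPKM + 0.1 of the 10 genes on a log axis, ordered by median (black bars), with 1 point per library (red, Model; blue, FJDHF). The medians run from 272 for Timp2 to 1.43 for Mmp10, and the spread between libraries is widest for Mmp10, Mmp12 and Mmp13.

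Summed over the 7 metalloproteinases, the FPKM was 430 in MXL1, 689 in MXL12, 370 in MXL3_4 and 769 in MXL_3, and 355 to 595 in the FJDHF libraries. For the 3 inhibitors it was 354 to 497 in the Model and 319 to 441 in the FJDHF libraries. The ratio of these enzymes to these inhibitors was 1.21 in MXL1, 1.54 in MXL12, 1.01 in MXL3_4 and 1.55 in MXL_3, against 1.02 to 1.35 in the FJDHF group. Both Model libraries with high Mmp3 lay above the FJDHF range, MXL1 lay inside it and MXL3_4 just under it. Mmp3, which led the choice of members on this contrast, was 37.6% of the enzyme sum in MXL12 and 30.7% in MXL_3. The ratio is thus no separate result. Mmp11, not a member, is outside the sum and had its highest FPKM in MR1 (87.3) and its lowest in MXL_3 (15.7). Mmp2 made up 34.5% of the enzyme sum in MXL12 and 44.4% to 60.4% in the other 8 libraries. The 4 members on chromosome 9 made up 48.8% of it in MXL12, 34.2% in MXL_3 and 19.2% to 32.2% in the others. These sums are of transcripts and do not measure enzyme activity.

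**Figure D4:**
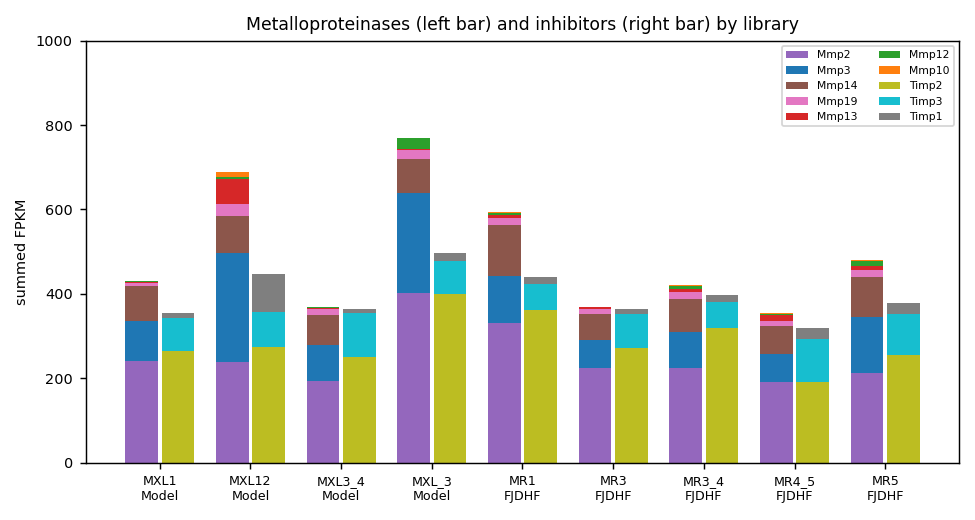
Summed FPKM (vertical axis, from 0) of the metalloproteinases (left bar) and the inhibitors (right bar) in each library, coloured by gene. Mmp2 is the largest share of the enzyme bar in each library except MXL12, where Mmp3 is larger (37.6% against 34.5%), and Timp2 is at least 60.1% of the inhibitor bar.

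To see which genes varied together beyond the contrast that chose them, the group means of log2(CPM + 0.5) were subtracted and all 45 pairs of members were correlated over the 9 libraries, with two-sided exact permutation within groups and adjustment over the 45 pairs. The pair of Mmp2 and Timp2 passed (Pearson's r = 0.896, exact permutation p = 0.000347, adjusted p = 0.0156; Spearman's rho = 0.983, exact permutation adjusted p = 0.0156). This p is the smallest the permutations allow. Without MR1 and MXL_3, the libraries farthest from the median of Mmp2, r was 0.804. With Mmp14, the partner of Timp2 in activating Mmp2, r was 0.605 for Mmp2 (exact permutation adjusted p = 0.199) and 0.613 for Timp2 (exact permutation adjusted p = 0.301).

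Mmp10, Mmp13 and Timp1 had the highest coefficients, 0.949 for Mmp10 and Mmp13, 0.959 for Mmp10 and Timp1 and 0.930 for Mmp13 and Timp1, but none passed (exact permutation adjusted p = 0.141, 0.141 and 0.159). Without MXL1 and MXL12, r was 0.693 for Mmp10 with Mmp13, 0.788 for Mmp10 with Timp1 and 0.615 for Mmp13 with Timp1. Mmp3 was closest to Mmp19 among the members (r = 0.911, exact permutation adjusted p = 0.141). Among 15714 other genes of at least 1 CPM, those with the highest r to Mmp3 were 4930503L19Rik (0.981), Gm14403 (0.977), Zfp189 (0.971), Hhex (0.968) and Dgkh (0.965). Mmp19 ranked 96 in that order, and these ranks are descriptions over 9 libraries.

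Each member was also set beside 12 scores of cell type markers in the same way, and none of the 120 pairs passed adjustment. With log2(FPKM + 1), or without TMM factors, Mmp2 and the fibroblast score passed (exact permutation adjusted p = 0.0417 in both). By Pearson's r, Mmp2 and Timp2 were closest to the score of 8 fibroblast markers (0.921 and 0.944, exact permutation adjusted p = 0.0833 for both). By Spearman's rho they were closest to the endothelial score (0.983 and 0.967), then to the macrophage score (0.950 and 0.917, exact permutation adjusted p = 0.0595 for all). The rho with the fibroblast score was 0.867 and 0.883 (exact permutation adjusted p = 0.0667 for both). All 8 fibroblast markers had lower fitted levels in the FJDHF group (median log2 fold change -0.42), their score was 10.38 to 11.12 in the Model and 9.88 to 10.81 in the FJDHF libraries, and none was at 0. Without MXL_3, 6 of the 8 fibroblast markers were lower. With the fibroblast score as a covariate the log2 fold change was positive for Mmp2 (0.17), Timp2 (0.21), Mmp12 (0.75) and Mmp14 (0.21), and negative for the others, with -0.68 for Mmp3, -1.31 for Mmp13 and -1.05 for Timp1. Markers of differentiated keratinocytes had the other direction, with 7 of 8 higher in the FJDHF group (median log2 fold change 1.02), scores of 8.16 to 9.03 against 7.37 to 8.70 in the Model group and none at 0. The remaining marker, Krt77, was lower, with a log2 fold change of -2.10 (standard error 0.77). At an unadjusted edgeR p under 0.05, 5 of the 8 were higher and 1 lower, where 1.57% of all tested genes were called. Of 5 activated keratinocyte markers 4 were higher (median log2 fold change 1.19, and 0.23 without MR4_5), with scores of 6.29 to 8.35 against 4.34 to 7.24. All 7 macrophage markers were higher (median log2 fold change 0.245), but 4 without MXL3_4, with scores of 5.90 to 7.26 against 5.64 to 7.07. No marker passed the adjusted edgeR threshold, and the part of these cells in the levels of the members was not tested. Mmp19 ran against the basal keratinocyte score (r = -0.902, exact permutation adjusted p = 0.0938) and Mmp3 against the hair follicle score (r = -0.780, exact permutation adjusted p = 0.1). The hair follicle score also had an r of -0.856 with Mmp14 and -0.771 with Mmp12 (exact permutation adjusted p = 0.159 for both). It had a negative r with every member except Timp3 (0.171). Unlike Timp2, Timp3 ran against the fibroblast score (r = -0.802, exact permutation adjusted p = 0.179). Mmp12 had an r of 0.262 with the macrophage score (exact permutation adjusted p = 0.685). With the mast cell score its r was 0.843 (exact permutation adjusted p = 0.13), and 0.563 without MR3 and MXL_3.

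The neutrophil score was highest in MXL12 (2.82) and MXL_3 (2.81), the libraries with the highest Mmp3, and 0.71 to 1.95 in the other 7. Its r with Mmp3 was 0.810 (exact permutation adjusted p = 0.367) and rested on these libraries, with 0.097 when both were left out. The mast cell score had a higher r with Mmp3, 0.818 (exact permutation adjusted p = 0.213), and 0.63 without both libraries. All 7 neutrophil markers had lower fitted levels in the FJDHF group, but 5 without MXL12 and 4 without MXL_3. In MXL12 the receptors Cxcr2 and Csf3r were at 80.1 and 74.8 CPM, against at most 12.5 and 23.2 in the others. In MXL_3 they were at 6.69 and 17.3 CPM. The granule genes Ngp and Ltf were at 20.5 and 12.5 CPM in MXL_3, against at most 4.23 and 3.73 in the others. In MXL12 these granule genes were at 3.08 and 2.42 CPM. Ly6g and Retnlg were higher in both MXL12 and MXL_3 than in any other library. Ly6g was at 0 in MR3 and MXL1. The part of neutrophils or of tissue makeup in the levels of the members was not tested.

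**Figure D5:**
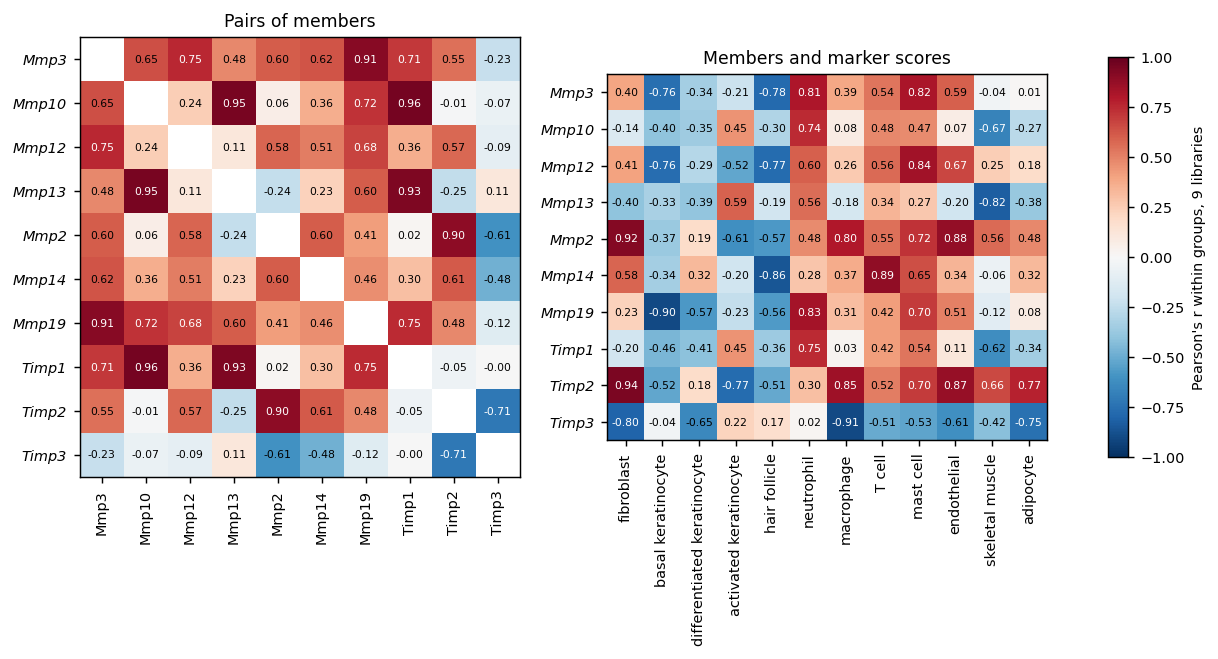
Pearson's r over 9 libraries after subtraction of the group means, for pairs of members (left) and for members with marker scores (right), from -1 (blue) to 1 (red). Mmp10, Mmp13 and Timp1 form 1 group of high values and Mmp2 and Timp2 another, and only Mmp2 with Timp2 passed adjustment.

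Other genes of the system were counted from lists, and 0 of the 92 tested genes passed the adjusted threshold. At an unadjusted p under 0.05 there were 4 (4.35%), namely Mmp8, Adamts8, Tmprss11a and Col3a1, against 1.57% of all tested genes. Of the other metalloproteinases and inhibitors, 14 were tested, 6 higher and 8 lower. Mmp8, the neutrophil collagenase, had 4.93 to 10.3 CPM in the Model and 1.94 to 4.35 CPM in the FJDHF libraries, with no overlap (log2 fold change -1.18, standard error 0.33, edgeR adjusted p = 1). Mmp11, a stromelysin of stroma, had a log2 fold change of 0.81 (standard error 0.38, edgeR adjusted p = 1), and Mmp27, the next highest in FPKM, one of -0.28 (standard error 0.29, edgeR adjusted p = 1).

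Of 22 ADAM and ADAMTS genes, relatives that shed surface proteins or cut proteoglycans, 8 were higher and 14 lower. Adamts8 had 2.03 CPM in the FJDHF and 3.74 CPM in the Model group on average (log2 fold change -0.88, edgeR adjusted p = 1), while Adamts2 and Adam10 had -0.28 and -0.05. Among 15 activators and their inhibitors the protease gene Tmprss11a had 1.34 to 11.0 CPM in the FJDHF and 0.38 to 2.65 CPM in the Model libraries, with overlap (log2 fold change 2.09, edgeR adjusted p = 1). The kallikrein Klk6 had 1.09, and the cathepsins Ctsk and Ctsb had -0.18 and 0.04.

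Of 16 matrix substrates 14 had lower fitted levels in the FJDHF group, with a median log2 fold change of -0.27. Col3a1 and Col1a2, chains of fibrillar collagens that are also among the fibroblast markers, had -0.57 and -0.54 (edgeR adjusted p = 1 for both). Of 18 cytokines and transcription factors that induce metalloproteinase genes, 7 were higher and 11 lower. The cytokine gene Il1b had 659 CPM in MXL12 and 2.23 to 50.2 CPM in the other 8 libraries, and Il6 had 14.1 CPM in MXL12 and 0.22 to 1.34 CPM in the others. The transcription factor genes Ets2 and Fosl2 had log2 fold changes of -0.15 and 0.03. Of the other tested Fos and Jun genes, Fos had 1.34 (standard error 0.76), Fosb 0.85, Jun 0.36, Jund 0.13 and Junb -0.27. The groups overlapped for each of them. Among 7 receptors that bind or clear the enzymes, 3 were higher and 4 lower, and Itgb3, Itgav, Sdc1 and Cd63 lay between -0.17 and 0.15.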

How the data were processed

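The authors deposited whole-number read counts per gene without normalization, and FPKM values, in which the authors adjusted counts to depth and to the length of each gene. The submitters' processing notes name HISAT, StringTie, DESeq2 and build mm10 without roles. The annotation release, and whether the counting used strand, are not given in the sources used here. A further 9 columns of counts in the FPKM table were not used.

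Counts were fitted with edgeR 4.0.16 in R 4.3.3 (filterByExpr, TMM, quasi-likelihood test, robust = FALSE, legacy = TRUE, Benjamini-Hochberg adjustment), across all genes. Several edgeR settings were compared after the data were seen. The main fit was kept as it had been designed, and the others are given as alternatives. Correlations used log2(CPM + 0.5) and the order of levels log2(FPKM + 0.1), with Python 3.11.15 and scipy 1.17.1. Alternatives used DESeq2 1.42.0 and limma 3.58.1. The steps were tested on simulated data.

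The members and lists were chosen with earlier results of these data known. Genes named are all members, from each list the genes at an unadjusted p under 0.05 (with fewer than 2, the 2 with the smallest p) and the 2 with the highest median FPKM, the 5 genes most like Mmp3, pairs past adjustment and the pairs of Mmp2, Mmp14 and Timp2. Other markers, pairs and list genes were named after their values were seen. In no 2 libraries of a group did the counts agree within sampling noise (over 16 pairs, chi-square divided by its degrees of freedom was 140 to 620). Each test took the libraries as separate units, and the labels do not name separate litters. A floor of 3 counts equals 0.0375 to 0.0415 CPM, which covers counting error only. Gene overlaps came from GENCODE M21.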

Additional observations from a re-analysis of the deposited data

Results flagged for a closer look

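Dixon's ratio served to find libraries far from their group. It is the gap to the nearest library divided by the range of the group, on log2 levels of the 10 members and 12 marker scores in both groups. Of 44 comparisons 2 passed the critical value, where chance flags about 1 in 20, that is 2.2. Timp2 in MXL_3 stood above the other Model libraries (ratio 0.839), and so did the score of differentiated keratinocyte markers in MXL1 (ratio 0.902).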

How the results depend on the processing

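The log2 fold change of Mmp3 was negative in all 23 fits run, between -1.125 and -0.518. Each of these fits kept MXL12 or MXL_3, the Model libraries above the FJDHF range of Mmp3. Mmp3 also led the choice of members on this contrast, so its sign is no separate result. With 1 library left out, the members' median log2 fold change lay between -0.789 and -0.071, genes at an unadjusted p between 217 (without MR4_5) and 734 (without MXL1), and list genes at that p between 2 (without MR3_4) and 10 (without MXL12), with 9 without MXL1 or MXL3_4. Genes at an unadjusted p numbered 905 with no filter on low counts and 1018 with the fibroblast score as covariate. Adjusted calls were 2 with DESeq2's Wald test, and list genes at an unadjusted p were 7 with that test, 2 with at least 10 counts in every library and 7 with the skeletal muscle score as covariate. Settings of edgeR tried after the data were seen gave 319 genes (robust = TRUE), 420 (legacy = FALSE), 417 (both) and 326 (library sizes recomputed after the filter) at an unadjusted p, and the same median of the members, -0.513. Mmp10 and Mmp13 turned positive with limma on log2(FPKM + 1) (0.393 and 0.363) and with the skeletal muscle covariate (0.982 and 0.539). The cause was not tested.

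The replicate block used the 3 code numbers that both groups share. For this check the group mean of each gene was subtracted from its level in each library. The remaining deviations of same-code libraries correlated at 0.225, 0.118 and -0.219 across genes, so the codes were not taken as pairs. With the block the members' median was 0.097 with 3 members lower, and on the same 6 libraries without a block it was 0.025 with 4 lower.

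With 1 library left out, 0 pairs of members passed adjustment, where the adjusted p of a lone pair cannot fall below 0.0625 (a Model library left out) or 0.0781 (an FJDHF library left out), so this count says nothing of stability, and neighbours in the order of levels numbered 0 to 5. Of the marker pairs, 1 passed with log2(FPKM + 1) and 1 without TMM factors, in both cases Mmp2 with the fibroblast score.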
